A study of Mus musculus with 6 samples.

Results

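Interleukin-1 (IL-1) family genes were examined in hepatic CD11b+Gr-1+ cells of tumour-bearing mice, after concanavalin A (Con A) and after PBS. The set was given as 10 genes: the cytokines Il1a, Il1b, Il18 and Il33, the antagonist Il1rn, the binding protein Il18bp, and the receptor genes Il1r1, Il1r2, Il1rap and Il18rap. A member was kept where a row of the deposited value table had that 1 gene symbol, and of several such rows the one brightest on average over the 6 arrays would be taken. That gave 9 of 10 members among 19938 genes tested. Il1r1 is not analysed here. Each of the 9 had 1 row, so no choice between rows was made for them.

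All mice were C57BL/6 and had EL4 tumours, a transplantable T cell lymphoma line. The Con A group, 3 arrays, came from mice injected with type IV Con A, a lectin from jack beans used to set off T cell-driven hepatitis in mice. The PBS group, 3 arrays, came from tumour-bearing mice injected with PBS, which some labels call untreated. Livers were taken 3 hours after injection in both groups. The dose of Con A is written as 12.5 mg/kg in some labels and 12.5 ug/kg in another and is not settled here. The labels name the cells myeloid-derived suppressor cells (MDSC), defined by 2 surface markers only. With 3 mice stated per group, it is not said if an array holds RNA of 1 mouse, so p-values cover only the spread among these arrays, part of which may be technical. All cells came from tumour-bearing animals, and no tumour-free group is analysed here.

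IL-1 alpha and IL-1 beta are agonists that bind the same receptor, IL-1R1, which then recruits the accessory chain IL-1RAP and signals through MYD88 and IRAK kinases to NF-kB. The pathway has several natural brakes: the receptor antagonist IL-1RN occupies the receptor without signalling, the decoy receptor IL-1R2 captures IL-1 without signalling, and IL-18BP binds IL-18 in solution. IL-1 beta and IL-18 are made as precursors that inflammasome caspases or other proteases cut, whereas IL-1 alpha is active as a precursor and acts as an alarm signal when cells die. Neutrophils and monocytes are known sources of IL-1, and neutrophils are known for carrying the decoy receptor.

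Upstream DNA of 5 members is shown because the results turn on them: Il1a, with the largest difference, Il1b, the other agonist, Il1r2, the decoy receptor, and the IL-18 genes Il18bp and Il18rap. The sequences are from RefSeq, build GRCm38.p6, 5′ to 3′ on the strand of the gene. Runs of over 30 bases lie wholly outside the gene record, and the short runs for Il1a and Il1r2 lie inside it, before a transcript start. Capitals mark motif matches.
Il1a, minus strand, chr2:129309984-129310013, bases 41 to 12 before the start, capitals a PU.1 core: GAGGAAgactataaaaaggcagagaagcct
Il1b, minus strand, chr2:129371165-129371389, bases 250 to 26 before the start, no match: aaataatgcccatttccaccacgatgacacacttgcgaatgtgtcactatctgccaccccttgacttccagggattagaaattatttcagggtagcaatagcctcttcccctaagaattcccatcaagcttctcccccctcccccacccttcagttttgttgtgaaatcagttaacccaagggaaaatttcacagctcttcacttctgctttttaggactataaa
Il1r2, plus strand, chr1:40085972-40086001, bases 121 to 92 before the start, capitals a GAS motif: cgggtgctttTTCAAGGAActtccgactac
Il18bp, minus strand, chr7:102018233-102018482, bases 250 to 1 before the start, capitals a C/EBP motif: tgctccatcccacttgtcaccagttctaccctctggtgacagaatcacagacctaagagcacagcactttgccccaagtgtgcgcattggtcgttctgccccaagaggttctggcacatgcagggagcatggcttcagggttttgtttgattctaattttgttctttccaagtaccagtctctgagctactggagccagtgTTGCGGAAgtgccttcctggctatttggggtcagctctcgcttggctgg
Il18rap, plus strand, chr1:40515112-40515361, bases 250 to 1 before the start, capitals PU.1 cores: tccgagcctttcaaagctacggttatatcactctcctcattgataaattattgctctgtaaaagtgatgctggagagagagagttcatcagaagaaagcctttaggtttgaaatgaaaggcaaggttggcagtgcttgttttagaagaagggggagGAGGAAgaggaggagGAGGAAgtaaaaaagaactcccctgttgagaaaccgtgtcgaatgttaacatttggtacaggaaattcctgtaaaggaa

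The 250 bases before each listed start were searched on both strands for 7 motifs, in the 12 windows that RefSeq lists for the 9 members and in all 32851 windows. The PU.1 core GAGGAA was in 23.3% of all windows, the C/EBP motif TTGCNNAA in 9.56%, the GAS motif TTCNNNGAA in 7.02% and the AP-1 motif TGANTCA in 6.75%. The E-box CACGTG was in 6.02% of all windows, the NF-kB consensus in 7.25% and the interferon response motif GAAANNGAA in 7.13%. Il1a had a PU.1 core and an AP-1 match, Il1rn an AP-1 match in 1 of its 3 windows, and Il1r2 a GAS match and E-boxes, while the windows of Il1b, Il18 and Il1rap matched none of the 7. The windows of the 9 members held the NF-kB consensus in 0 cases and the interferon response motif in 0 cases, which says only that those letters were not in these windows.

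After Con A, 5 of 9 members rose and 0 fell: Il1a, Il18bp, Il1rap, Il1r2 and Il18rap. Among all genes tested, 11.8% passed the same threshold, with 4.59% higher and 7.22% lower after Con A. The threshold was an adjusted p of 0.05 by limma, a linear model test with a spread estimate shared across genes, with Benjamini-Hochberg adjustment over all 19938 genes. At an unadjusted limma p under 0.05 there were 6 members higher, Il1rn with them, and 0 lower, against 11% of all genes higher and 13.7% lower. The 4 members that did not pass were Il1b, Il1rn, Il18 and Il33. The median difference of the 9 members was 0.67 on the log2 scale, against 0.02 for all genes. In 6 of 9 members, the 5 named and Il1rn, every Con A array stood above every PBS array. Among all genes the groups did not overlap in 29.9%, with Con A higher in 14.4%. The members were chosen with earlier results of these data known, so these counts are not a test of the set. The median level of the members was also higher, at 10.74 log2 against 7.25 for all genes.

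**Figure D1:**
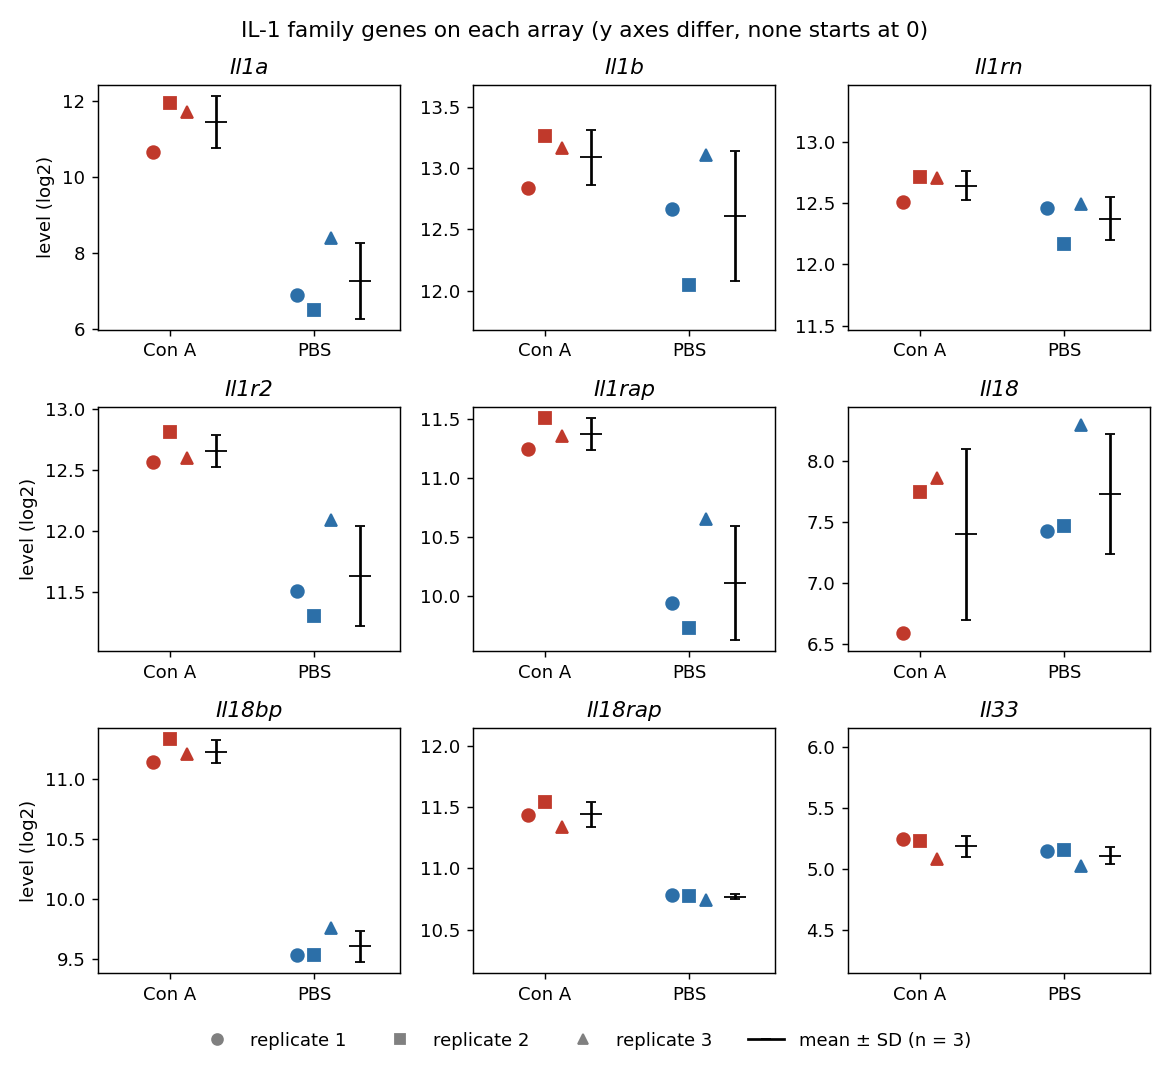
Level (log2) of each of the 9 IL-1 family genes on each array, with the 3 Con A arrays left and the 3 PBS arrays right in every panel. Symbols mark the replicate number, and the bar beside each group is the mean ± SD (n = 3). The groups are apart for Il1a, Il1rn, Il1r2, Il1rap, Il18bp and Il18rap and overlap for Il1b, Il18 and Il33.

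Among the cytokines, Il1a had the largest rise of all 19938 genes. Its log2 level was 10.66, 11.94 and 11.71 on Con A replicates 1, 2 and 3, against 6.89, 6.50 and 8.39 on PBS replicates 1, 2 and 3. The lowest Con A array stood above the highest PBS array, and PBS replicate 3 stood clearly above the other PBS arrays. The mean was 11.44 ± 0.68 after Con A and 7.26 ± 1.00 after PBS (SD, n = 3 each), an 18.1-fold difference (adjusted p = 0.00286 by limma). On the log2 scale the difference was 4.18, with a 95% interval of 2.97 to 5.38. The PBS levels of 2 arrays lay below the array medians of 7.05 to 7.08.

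Il1b, the agonist made as a precursor that must be cut, was high in both groups, toward the upper end of the scale, where differences can be compressed. It stood at 12.84, 13.27 and 13.16 log2 on the Con A arrays, against 12.67, 12.05 and 13.11 on the PBS arrays. The groups overlapped, because PBS replicate 3 lay above Con A replicate 1. Its difference was 0.48 (95% interval -0.11 to 1.07) and missed the threshold (limma adjusted p = 0.302). Without PBS replicate 3 the difference was 0.73 and the adjusted p was 0.0524. Il1bos, a noncoding gene that overlaps Il1b on the opposite strand, had means of 7.07 log2 after Con A and 6.54 after PBS, and its difference of 0.54 missed the threshold too (limma adjusted p = 0.105).

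Il18, whose product drives interferon-gamma production by T and NK cells, was not shown to change. It had 6.59, 7.74 and 7.86 log2 on the Con A arrays, against 7.43, 7.47 and 8.29 on the PBS arrays. The lowest value was that of Con A replicate 1 and the highest that of PBS replicate 3. The difference was -0.33 (95% interval -1.19 to 0.53, limma adjusted p = 0.643), and without Con A replicate 1 it was 0.07. Il33, an alarm cytokine of endothelial and other tissue cells, lay between 5.08 and 5.24 log2 on the Con A arrays and between 5.03 and 5.15 on the PBS arrays. Every Il33 value was below the array medians, and the values carry no detection call, so it cannot be said if the gene was expressed. Its difference was 0.08 (95% interval -0.11 to 0.26, limma adjusted p = 0.625).

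The antagonist of IL-1 and the binding protein of IL-18 differed in how they stood to the threshold. Il1rn had 12.51, 12.72 and 12.71 log2 on the Con A arrays, against 12.46, 12.17 and 12.49 on the PBS arrays. The groups were apart by a narrow gap between Con A replicate 1 and PBS replicate 3. Its difference was 0.27 (95% interval 0.01 to 0.53), and it missed the threshold after adjustment (limma adjusted p = 0.183). Il18bp had 11.15, 11.34 and 11.22 log2 on the Con A arrays, against 9.53, 9.53 and 9.76 on the PBS arrays. These groups were far apart and tight. Its mean was 11.23 ± 0.09 after Con A and 9.61 ± 0.13 after PBS (SD, n = 3 each), 3.09-fold higher (limma adjusted p = 0.000469). IL-18BP is a known target of interferon-gamma, described mainly in human cells.

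All 3 receptor genes measured among the members rose. Il1r2, the decoy receptor, stood at 12.57, 12.81 and 12.60 log2 on the Con A arrays, against 11.51, 11.31 and 12.09 on the PBS arrays. PBS replicate 3 came nearest to the Con A arrays, which all stood above it. The rise was 2.03-fold, or 1.02 on the log2 scale (95% interval 0.57 to 1.47, limma adjusted p = 0.0146). The call was lost without Con A replicate 2 (adjusted p = 0.0708) and without PBS replicate 1 (adjusted p = 0.0717).

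Il1rap encodes the accessory chain shared by the receptors for IL-1, IL-33 and IL-36. It had 11.25, 11.51 and 11.36 log2 on the Con A arrays, against 9.94, 9.73 and 10.66 on the PBS arrays. The Con A arrays were close together and all above PBS replicate 3. The rise was 2.40-fold (limma adjusted p = 0.0114). Leaving out Con A replicate 2 gave an adjusted p of 0.0593, and leaving out PBS replicate 1 gave 0.0608.

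Il18rap encodes the signalling chain of the IL-18 receptor. It had 11.44, 11.55 and 11.34 log2 on the Con A arrays, against 10.78, 10.78 and 10.75 on the PBS arrays. The PBS arrays were almost equal, at a mean of 10.77 ± 0.02, and the Con A mean was 11.44 ± 0.10 (SD, n = 3 each). The rise of 0.67 (95% interval 0.49 to 0.86) was 1.59-fold (limma adjusted p = 0.00226). It was the smallest of the 5 rises, and with Il18bp it was 1 of 2 members that passed under all 14 alternative settings.

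**Figure D2:**
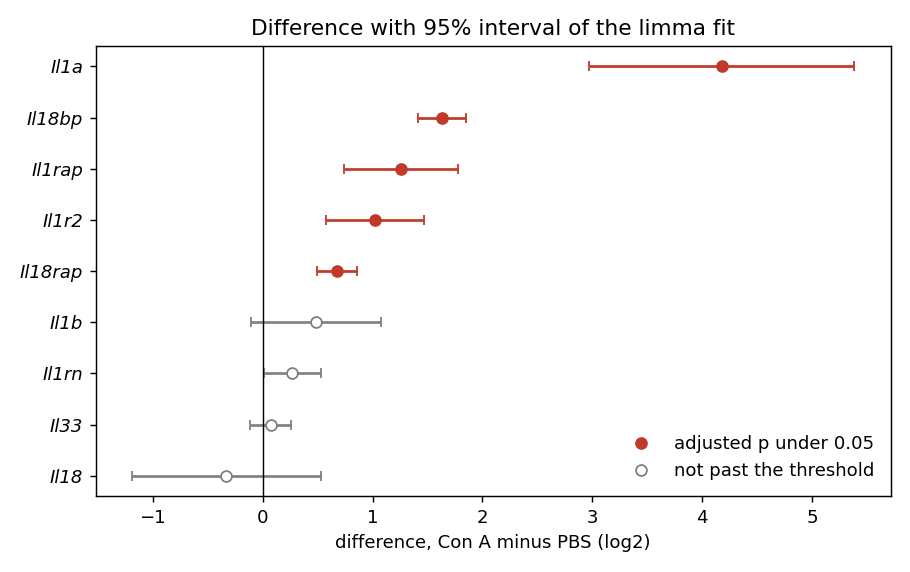
Difference between Con A and PBS (log2, Con A minus PBS) of each IL-1 family gene, with the 95% interval of the limma fit. Filled red points passed an adjusted p of 0.05, and open grey points did not. Il1a stands at 4.18, the other 4 genes that passed between 0.67 and 1.63, and the interval of Il18 reaches from -1.19 to 0.53.

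Differences between 2 members within an array ask if they changed unequally, and 4 pairs were compared. A level of one gene cannot be set against that of another on these arrays, but the change of their difference can, within a limit. Differences can be compressed at both ends of this scale, and the highest value of an array was 14.24 to 14.30 log2. Il1b and Il1rn lay toward that end, so their changes may be understated beside that of Il1a, which was not tested. Il1r2, with a Con A mean of 12.66 log2 against 12.64 for Il1rn, rose by 1.02. Il1a minus its antagonist Il1rn was -1.84, -0.77 and -0.99 log2 on the Con A arrays, against -5.56, -5.67 and -4.10 on the PBS arrays. It was thus higher by 3.91 after Con A, with no overlap. Il1a minus Il1b was higher by 3.70, at -1.65 ± 0.46 after Con A and -5.35 ± 0.56 after PBS (SD, n = 3 each), again with no overlap. Il18 minus Il18bp was -3.83 ± 0.64 after Con A and -1.88 ± 0.36 after PBS (SD, n = 3 each), a change of -1.96 with no overlap. Il1b minus Il1rn overlapped, at 0.45 ± 0.11 after Con A and 0.23 ± 0.37 after PBS. For the 3 pairs without overlap the exact two-sided permutation p was 0.1, the smallest that 3 against 3 arrays allow, and 0.133 adjusted over the 4 pairs. For Il1b minus Il1rn the exact permutation p was 0.5.

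Members shared an order of arrays. PBS replicate 3 was the highest PBS array for 7 of 9 members, against 32.6% of all genes, and Con A replicate 1 was the lowest Con A array for 7 of 9, against 32% of all genes. Con A replicate 2 was the highest Con A array for 7 of 9 members, against 36.7% of all genes, and without it the Il1a difference was 3.93 (limma adjusted p = 0.0204). The members that broke the PBS order were Il18rap and Il33. Without PBS replicate 3 the Il1a difference was 4.74, and without PBS replicate 2 it was 3.80, the range over all fits with 1 array left out. In those 6 fits the number of members past the threshold was 3 to 5.

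In the mouse genome the receptor genes of the family lie side by side on chromosome 1, in the RefSeq order Il1r2, Il1r1, Il1rl2, Il1rl1, Il18r1 and Il18rap. Neighbours were looked up after the members' values were seen, and the ends of the row, Il1r2 and Il18rap, are members that rose. All 4 genes measured in this row rose: besides Il1r2 and Il18rap these were Il1rl2, the receptor for IL-36, and Il18r1, the binding chain of the IL-18 receptor. Il1rl2 had a mean of 9.47 ± 0.11 log2 after Con A and 8.18 ± 0.21 after PBS (SD, n = 3 each), 2.45-fold higher (limma adjusted p = 0.00126). Il18r1 had a mean of 9.88 ± 0.19 after Con A and 8.81 ± 0.18 after PBS (SD, n = 3 each), 2.10-fold higher (limma adjusted p = 0.00262). RNA for both chains of the IL-18 receptor was therefore higher, and these arrays measure no protein. The nearest 4 measured genes outside the row, Rfx8, Map4k4, Slc9a4 and Slc9a2, had 0 calls, with limma adjusted p from 0.328 to 1. Among all genes 4.59% rose and 7.22% fell by limma, so 0 calls in 4 genes does not mark an edge of the row.

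On chromosome 2 Il1a and Il1b are adjacent protein-coding genes, and 1 of the 2 rose. The gene on the other side of Il1a, Ckap2l, which encodes a protein of the mitotic spindle, also rose, at 10.39 ± 0.23 log2 after Con A and 8.94 ± 0.46 after PBS (SD, n = 3 each), 2.75-fold higher (limma adjusted p = 0.00727). The next measured gene, Slc20a1, had a difference of 0.47 (limma adjusted p = 0.0583). Il1rn lies at the end of a row of IL-36 family genes elsewhere on chromosome 2. Of the 5 other genes of that row, Il1f6, which encodes IL-36 alpha, was the 1 that rose, by 0.59 (limma adjusted p = 0.0408). Its mean levels of 6.08 log2 after Con A and 5.49 after PBS lay below the array medians, and the call was lost in 7 of 13 alternatives. Il1f9, which encodes IL-36 gamma, had a mean of 13.11 log2 after Con A and 12.86 after PBS, and missed the threshold (difference 0.25, limma adjusted p = 0.225). Of the 4 flanking genes measured, Hnmt, which encodes a histamine-degrading enzyme and is parted from Il1f8 by Tbpl2, was the 1 called. It fell by 1.19 (limma adjusted p = 0.00193) and passed in all 14 alternatives.

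**Figure D3:**
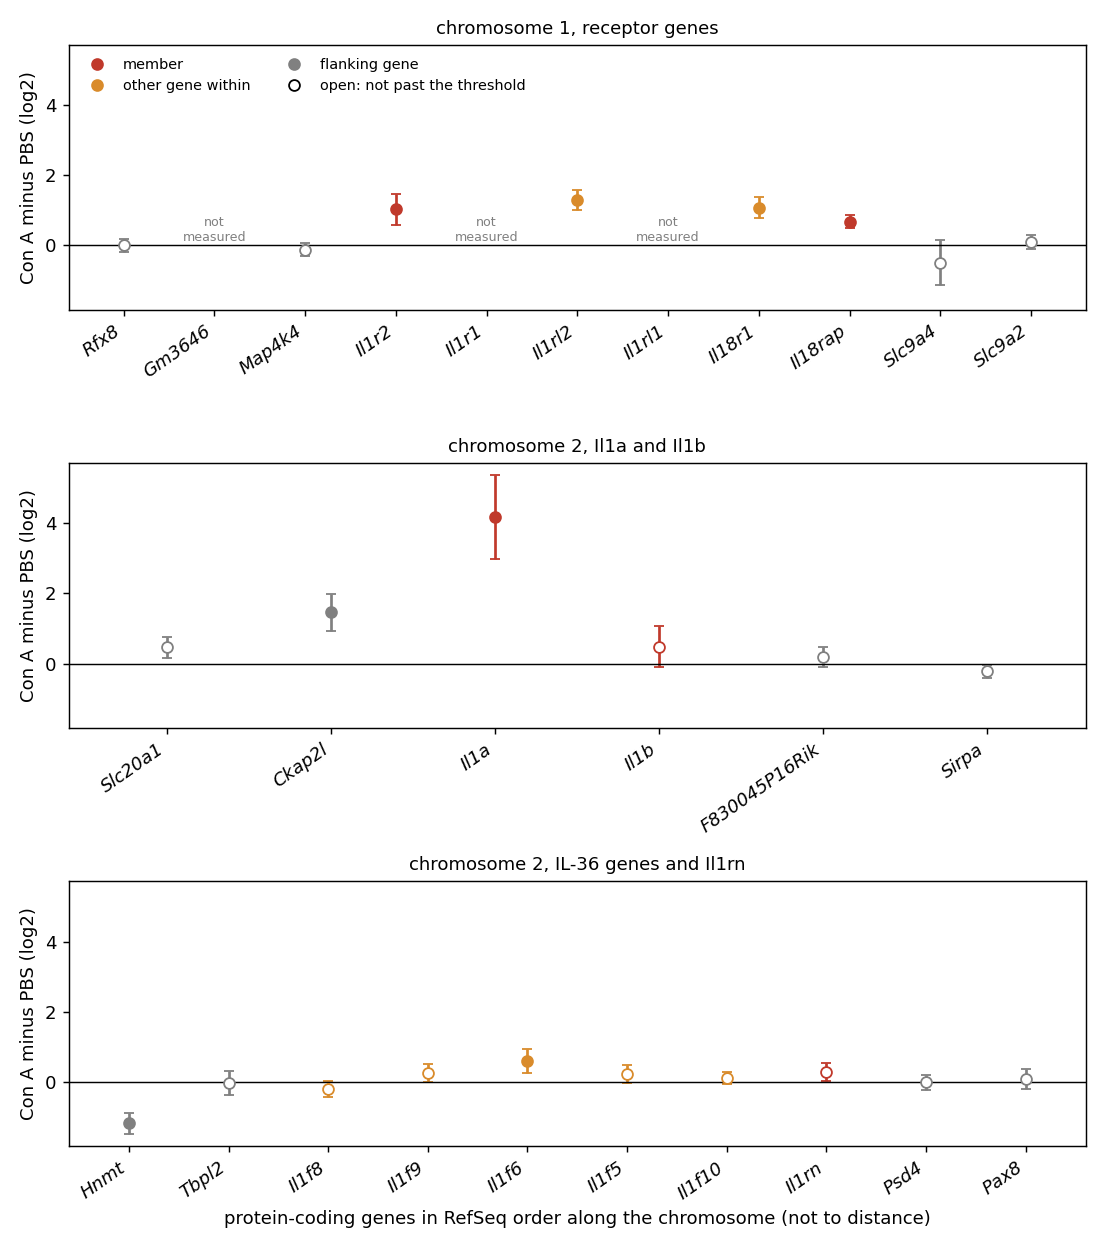
Difference between Con A and PBS (log2, with the 95% interval of the limma fit) of protein-coding genes in RefSeq order around the IL-1 family genes, in 3 chromosome segments; spacing is not to distance. Red points are members, orange points other family genes, grey points flanking genes, and filled points passed an adjusted p of 0.05. All 4 measured genes from Il1r2 to Il18rap are filled and their 4 flanking genes are open, while Ckap2l beside Il1a is filled, as is Hnmt, below 0. Among all genes tested, 11.8% passed.

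Genes that mature and release IL-1 and IL-18 moved both ways. Of 19 measured, 4 rose and 4 fell, against 4.59% and 7.22% of all genes, with a median difference of 0.32. Casp4, the inflammatory caspase that senses lipopolysaccharide in the cytosol, rose by 1.5 (limma adjusted p = 0.00664), and Nlrc4, an inflammasome sensor, by 0.95 (limma adjusted p = 0.000808). Ctsg, a neutrophil protease gene that can process IL-1 family cytokines, rose by 0.83, a call lost in 7 of 14 alternatives. P2rx7, the ATP receptor that triggers inflammasomes, fell by 0.71 (limma adjusted p = 0.00328). Picked after their values were seen, as the best known parts, Casp1, Nlrp3 and Pycard stood at 0.66, 0.42 and -0.71. Of these 3, Pycard, the adaptor ASC, passed and was lower (limma adjusted p = 0.00157), while Casp1 (0.051) and Nlrp3 (0.381) did not pass.

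Of 16 genes of signalling next to the receptor, 7 rose and 0 fell by limma, against 4.59% and 7.22% of all genes. At an unadjusted limma p under 0.05, 8 were higher and 3 lower, against 11% and 13.7% of all genes. The median difference was 0.18. Traf6, the ubiquitin ligase that links IRAK kinases to NF-kB, rose by 0.89 (limma adjusted p = 0.0015), and Irak2, a kinase of the receptor complex, by 0.84. Irak3, which encodes the inhibitory kinase IRAK-M, rose by 0.74 (limma adjusted p = 0.00152), and the kinase gene Map3k8 by 0.58. The last call was lost in 6 of 14 alternatives. Without PBS replicate 1 this list had 3 genes past the threshold, and without PBS replicate 2, Con A replicate 2 or Con A replicate 3 it had 4.

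Of 25 textbook targets of IL-1 signalling, 14 rose and 1 fell, against 4.59% and 7.22% of all genes, with a median of 0.73. These genes answer to many other signals through NF-kB as well, and the list was drawn up with results of these arrays known. Il6, with a PBS mean of 5.63 log2 that lay below the array medians, rose by 2.93, and the neutrophil attractant gene Cxcl3 by 2.32 (limma adjusted p = 0.0104 and 0.0167). The adhesion gene Icam1 rose by 1.90 and the chemokine gene Ccl4 by 1.84 (limma adjusted p = 0.00559 and 0.0187). The Cxcl3 call was lost in 4 of 14 alternatives and the Ccl4 call in 5 of 14. The gene that fell was the protease gene Mmp9, by 0.58 (limma adjusted p = 0.00401). Without Con A replicate 2 the list had 7 genes past the threshold and without PBS replicate 1 it had 8. Among the 5 measured receptors of the family outside the members, 2 rose, Il1rl2 and Il18r1, and 0 fell by limma. At an unadjusted limma p under 0.05, 0 were lower, against 13.7% of all genes. By direction alone 3 of the 5 were higher, and their median difference was 0.055, against 0.024 for all genes.

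**Figure D4:**
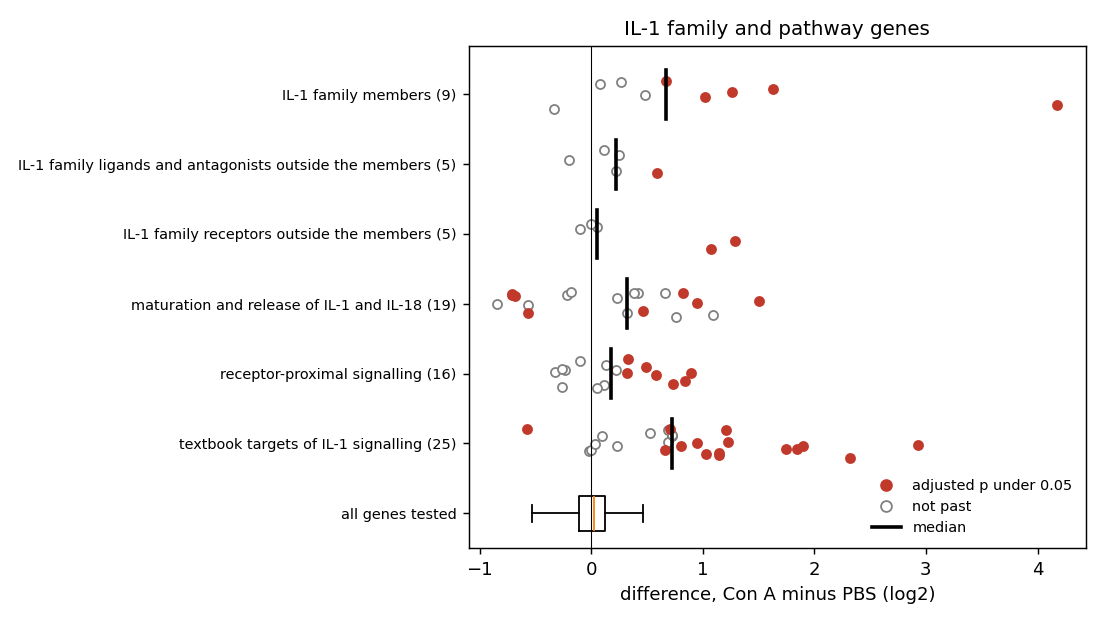
Difference between Con A and PBS (log2) of every measured gene in the IL-1 family set and 5 pathway lists, 1 point per gene, filled red where the adjusted p was under 0.05, with a black bar at the median; the number of genes stands in brackets. The box at the bottom gives the quartiles and the 5th and 95th percentiles of all 19938 genes. The medians of the members, 0.67, and of the textbook targets, 0.73, lie to the right of that of all genes, 0.02. The members and lists were chosen with earlier results of these data known.

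Marker levels were read beside these results, as the mean log2 level of each list on each array. Among all genes, 4.59% rose and 7.22% fell by limma, and 11% were higher and 13.7% lower at an unadjusted limma p under 0.05. Granulocyte markers were high in both groups: of 16 measured, 0 rose and 1, Mmp9, fell by limma (2 higher and 2 lower at an unadjusted p under 0.05), and their mean lay between 12.61 and 12.73 on the Con A arrays and between 12.55 and 12.67 on the PBS arrays. Ly6g stood at 13.51 ± 0.05 after Con A and 13.59 ± 0.09 after PBS, and Itgam, which encodes CD11b, at 12.77 ± 0.04 after Con A and 12.92 ± 0.15 after PBS (SD, n = 3 each). The median level of the granulocyte markers was 13.29 log2, toward the upper end of the scale, where differences can be compressed. Their like levels therefore do not show that the granulocyte content was equal. Monocyte markers were lower after Con A, between 10.06 and 10.55 on the Con A arrays against 10.83 to 11.19 on the PBS arrays, with 4 of 14 that fell and 2 that rose by limma (10 lower and 2 higher at an unadjusted p under 0.05). F13a1, which encodes a coagulation factor subunit, and the chemokine receptor gene Ccr2 led them, with differences of -2.16 and -2.00 (limma adjusted p = 0.000808 and 0.00177). The list of eosinophil, basophil and mast cell markers was higher after Con A, between 8.44 and 9.15 on the Con A arrays against 7.76 to 8.24 on the PBS arrays, with 7 of 14 that rose and 0 that fell (10 higher and 0 lower at an unadjusted limma p under 0.05). Kit, a growth factor receptor gene of mast cells, rose by 1.43 and Epx, the eosinophil peroxidase gene, by 1.13 (limma adjusted p = 0.00176 and 0.0459). Their part in the results for Il1a, Il18bp, Il1rap, Il1r2 and Il18rap was not tested. In sorted bulk cells, fewer cells of a type and less RNA per cell cannot be told apart.

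Mean levels of the other marker lists overlapped between the groups. For 13 Kupffer cell markers they were 8.23 to 9.72 on the Con A arrays and 8.34 to 8.81 on the PBS arrays. For 12 NK cell markers they were 6.87 to 7.87 on the Con A arrays and 7.26 to 7.65 on the PBS arrays, and for 12 T cell and EL4 markers 6.84 to 7.13 on the Con A arrays and 6.76 to 7.0 on the PBS arrays. The 9 B cell markers had 6.66 to 6.72 on the Con A arrays and 6.62 to 6.96 on the PBS arrays, and the 11 dendritic cell markers 7.63 to 8.24 on the Con A arrays and 7.64 to 8.12 on the PBS arrays. The 14 hepatocyte markers had 6.98 to 7.60 on the Con A arrays and 6.94 to 6.99 on the PBS arrays, and the 15 endothelial and stellate markers 6.67 to 6.97 on the Con A arrays and 6.77 to 6.83 on the PBS arrays. Con A replicate 2 stood apart in liver markers: its hepatocyte mean was 7.60, against 7.02 and 6.98 on Con A replicates 1 and 3, and its Kupffer mean was 9.72, the highest of the 6 arrays. The albumin gene Alb had 11.17 log2 there, against 9.01 and 9.10 on Con A replicates 1 and 3 and 8.69 to 9.09 on the PBS arrays. The Il1r2 and Il1rap calls were lost without this array, and also without PBS replicate 1. Those of Il1a, Il18bp and Il18rap were kept in both fits. Without Con A replicate 2 the difference was 0.95 for Il1r2 and 1.19 for Il1rap, against 1.02 and 1.26 in the main fit. Genes past the threshold then numbered 1272 in place of 2355. The part of liver cell RNA in the results was not tested. No marker can be at 0 on this scale, and the values carry no detection calls. In these 7 lists 0 of 86 markers rose by limma, against 4.59% of all genes. At an unadjusted limma p under 0.05, 6 were higher, against 11% of all genes. By limma 1 fell in each of the Kupffer, B cell, dendritic and endothelial lists: Slc40a1, Ms4a1, Wdfy4 and Lyve1. By direction alone, 11 of 13 Kupffer, 4 of 9 B cell, 8 of 11 dendritic and 9 of 15 endothelial and stellate markers were higher. So were 12 of 14 hepatocyte, 7 of 12 T cell and EL4 and 6 of 12 NK cell markers, and 11179 of 19938 genes.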

How the data were processed

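Gene expression was measured on 6 mouse Affymetrix gene arrays, 3 per group. Per the labels' protocols, total RNA went through whole-transcriptome amplification and biotin labelling. The authors deposited log2 expression values; RMA and Partek are named without versions in the submitters' processing notes. RMA adjusts background, equalises the distributions of arrays and summarises probes. Differences can be compressed at both ends of the array scale. Array medians were 7.05 to 7.08, 0 pairs of arrays were identical. Precision is limited by the 6 arrays. For the array annotation, no genome build is given in the sources used here.

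Of 35556 rows, 21789 had 1 gene symbol in the platform annotation, 1621 several and 12146 none. Symbols checked against RefSeq by gene number gave 0 updates. The row with the highest mean stood for each of 19938 genes. The 2 groups were set against each other with limma 3.58.1 (R 4.3.3), using lmFit and eBayes, a two-sided test, p-values adjusted by Benjamini-Hochberg over the 19938 genes, called under 0.05. The fit was tested on simulated data. Python 3.11.15, pandas 2.3.3 and matplotlib 3.10.9 made the tables and plots. Alternatives were array centring, a filter on low values (6 or more on 3 or more arrays), a trended robust fit, no moderation, array weights, the mean of a gene's rows, all rows tested, the replicate number as a block, and each array left out.

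The members and lists were chosen with earlier results of these data known. Named genes were all members and of each pathway list up to 4 called genes that differed most; markers were named, up to 2 per list, where they passed, or where they define the sorted cells. Alb and Hnmt were named outside this rule, after their values were seen. Il1bos, Il1f9, Casp1, Nlrp3, Pycard, the other neighbouring genes and the genes most like Il1a and Il1b were named outside it too. The planned pair of Il1r2 with Il1r1 is not analysed here.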

Additional observations from a re-analysis of the deposited data

How the results depend on the processing

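Across 14 alternatives (13 for Il33, which the filter on low values removed), Il18bp and Il18rap passed the threshold in all 14, Il1a in 13, Il1r2 and Il1rap in 11, and Il1b, Il1rn, Il18 and Il33 in 0. With 1 array left out the Il18 difference ranged from -0.562 to 0.0727, its only value above 0 coming without Con A replicate 1 (limma adjusted p = 0.914), and every other member kept its sign under every alternative. Without moderation the count of genes past the threshold was 671 in place of 2355, members 2 in place of 5, targets 2 in place of 15, release genes 3 in place of 8, signalling genes 3 in place of 7, other receptors 1 in place of 2 and other ligands 0 in place of 1. Il1a then had an adjusted p of 0.0694. The ligand count was also 0 with the filter on low values, which removed Il1f6, and with all rows tested.

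With 1 array left out, genes past the threshold numbered 1140 to 2765. The lowest count came without PBS replicate 1, followed by 1272 (Con A replicate 2 left out) and 1480 (Con A replicate 3 left out). Members then numbered 3 to 5, targets 7 to 19, release genes 5 to 9, signalling genes 3 to 8 and other ligands 0 to 1. The cause of these changes was not tested. The pathway and neighbour alternatives were added after seeing the data.

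Whether equal replicate numbers pair the arrays is not settled here. Deviations from the group means correlated at 0.23, -0.17 and 0.56 for numbers 1, 2 and 3. Arrays of unequal number ranged from -0.54 (Con A replicate 1 with PBS replicate 3) to 0.54 (Con A replicate 1 with PBS replicate 2). With 3 arrays per group there are too few to tell. With the replicate number as a block, 2539 genes and 5 members passed the threshold. The standard error was then smaller for Il1a (0.36, against 0.52 in the main fit), Il18 (0.19 against 0.37), Il1b, Il1r2 and Il1rap. It was larger for Il18rap (0.087 against 0.078), Il18bp, Il1rn and Il33.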

Other observations

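Over the 6 arrays, the 5 genes whose log2 pattern was most like that of Il1a, among 10386 genes at a mean level of at least 7, were Trim71, Tlr2, Rest, Nfkbib and Mapkapk2, with Pearson r from 0.998 to 0.9995. Such values hold both the difference between the groups and the spread within them. They are the highest of 10386 over only 6 arrays, so they are high in part by that choice. Tlr2, a receptor for bacterial lipoproteins, had a difference of 1.13, Rest of 1.19, Nfkbib of 0.66, Mapkapk2 of 0.45 and Trim71 of 0.07 (Con A minus PBS, log2). Trim71, the first in order, missed the threshold (limma adjusted p = 0.577). The 5 genes most like Il1b were Clec4d, Ptprj, Marcksl1, Lacc1 and Rbm7, with r from 0.984 to 0.993. Their differences lay between 0.11 and 0.55, and none passed the threshold (limma adjusted p from 0.19 to 0.502).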
